A study of Mus musculus with 6 samples.

Results

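The organic anion, organic cation and drug transporters were taken as all protein-coding genes of the SLCO, SLC22, SLC47 and ABCC families, chosen by their symbols. They were 51 of 37991 genes in the count table, with 14 in the SLCO family, 25 in SLC22, 2 in SLC47 and 10 in ABCC. Their transcripts were counted by poly(A)-selected RNA-seq in livers of 12-week-old male mice. One group was 3 B6.Zpbp2-/- males (Zpbp2 KO), a knockout of the gene for zona pellucida binding protein 2, a sperm protein, and the other was 3 C57BL/6J wild-type males (WT). The labels give the strain of both groups as C57BL/6J, and no treatment is named for either. The part of Zpbp2 that the allele removes, and its breeding history, were not stated in any source at hand. The study's title names asthma and lipid metabolism, and the comparison asks how loss of Zpbp2 bears on liver transcripts.

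These families move charged and amphipathic molecules across cell membranes. In hepatocytes, SLCO and SLC22 proteins in the sinusoidal membrane take up bile acids, bilirubin, hormones, vitamins and drugs from blood. MATE1, the SLC47 protein of liver, exchanges cations for protons and passes them into bile, and ABCC proteins use ATP to export conjugates into bile or back into blood. Together they set how the liver clears many drugs, and several are known to differ between male and female mice.

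Each library held between 37904891 and 52955687 counts. A gene with 0 counts may still have up to 3, a level of 0.0560 to 0.0786 CPM (counts scaled to a common library size), for counting error only. Zpbp2 itself had 0 counts in each Zpbp2 KO library, against 4, 13 and 7 in WT replicates 1, 2 and 3. Markers of hepatocytes were abundant, with a summed level of 99600 to 104000 CPM in Zpbp2 KO and 88500 to 98700 CPM in WT livers. Most of this sum was Alb, at 74000 to 77000 CPM in Zpbp2 KO and 66100 to 75200 CPM in WT livers. Of the 8 markers, 7 had a log2 fold change above 0, and the groups overlapped for each. The other, Tat, had -0.43 (edgeR unadjusted p of 0.0183, adjusted p of 0.798). Of 7 kidney markers, 3 were at 0 in all 6 livers, Slc12a1 and Kap among them, and 3 others had 3 to 6 counts in all. The remaining one, Lrp2, made up nearly the whole sum of the list, at 1.40, 2.13 and 1.69 CPM in Zpbp2 KO livers, against 2.36, 4.69 and 3.09 CPM in WT livers. Zpbp2 KO replicate 2 was low in endothelial, Kupffer cell and stellate cell markers, but not in those of cholangiocytes, which summed to 44.5, 65.1 and 78.7 CPM in Zpbp2 KO replicates 1 to 3 and 50.1 to 73.1 CPM in WT livers. Its endothelial markers summed to 116 CPM and its Kupffer cell markers to 123 CPM, against 301 and 219 CPM, and 378 and 400 CPM, in Zpbp2 KO replicates 1 and 3. WT livers held 184 to 265 CPM of endothelial and 224 to 321 CPM of Kupffer cell markers.

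Of the 51 transporter genes, 30 passed the filter on low counts and were tested, and 0 of them were called at an adjusted p below 0.05 by edgeR's quasi-likelihood test, which called 0.0136% of all 14686 tested genes. The same count of 0 came from DESeq2, which called 0.517% of all genes, and from limma-voom, which called 0.0136%. At an unadjusted p below 0.05 edgeR had 3 transporters lower in Zpbp2 KO livers (Slc22a5, Slco2a1 and Abcc12) and 0 higher, and DESeq2 had 2, against 5.48% of all genes with a DESeq2 p. The 3 of edgeR stand among 30 tested members, against 5.79% of all tested genes in both directions, 2.93% lower and 2.86% higher. The log2 fold changes of the 30 genes, Zpbp2 KO over WT, ran from -1.09 to 0.14 with a median of -0.07, beside a median of 0.01 over all tested genes. By sign, 19 were below 0 and 11 above it (63.3% below, against 47.1% of all tested genes). The 2 groups did not overlap for 2 members, Slc22a5 and Slco2a1, both lower in Zpbp2 KO livers. That is 6.67% of members, against 11.6% of all tested genes, made up of 6.01% lower and 5.56% higher in Zpbp2 KO. In bulk tissue, fewer cells of a type and less RNA per cell cannot be told apart.

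**Figure D1:**
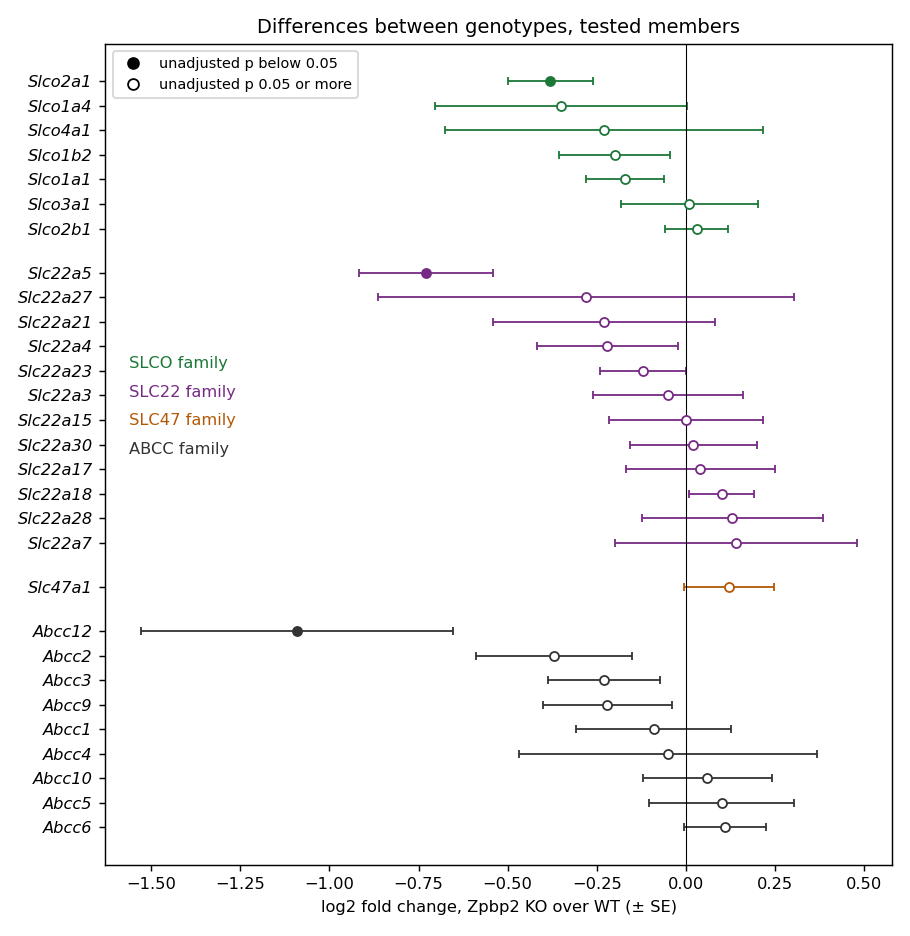
Log2 fold changes (x axis, Zpbp2 KO over WT, bars ± SE) of 29 tested transporter genes, grouped by family and sorted within it. Filled points mark the 3 genes with an unadjusted p below 0.05, Slc22a5, Slco2a1 and Abcc12, all left of 0.

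Levels of different genes were compared as CPM per kilobase of merged exons, averaged over all 6 livers. Slco1b2 was the highest, at 204 CPM per kilobase, and Slco1a1 reached 117. Of the 30 tested members, 13 lay above 10 CPM per kilobase, 6 between 1 and 10, and 11 below 1. In 25 of 29 neighbouring pairs the ranges over the 6 livers overlapped. The 4 pairs without overlap included Slco1a1 and Slc22a30, Slco1a4 and Abcc9, and Slc22a4 and Slc22a3. With the longest coding transcript as the length, no gene moved by more than 2 places.

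**Figure D2:**
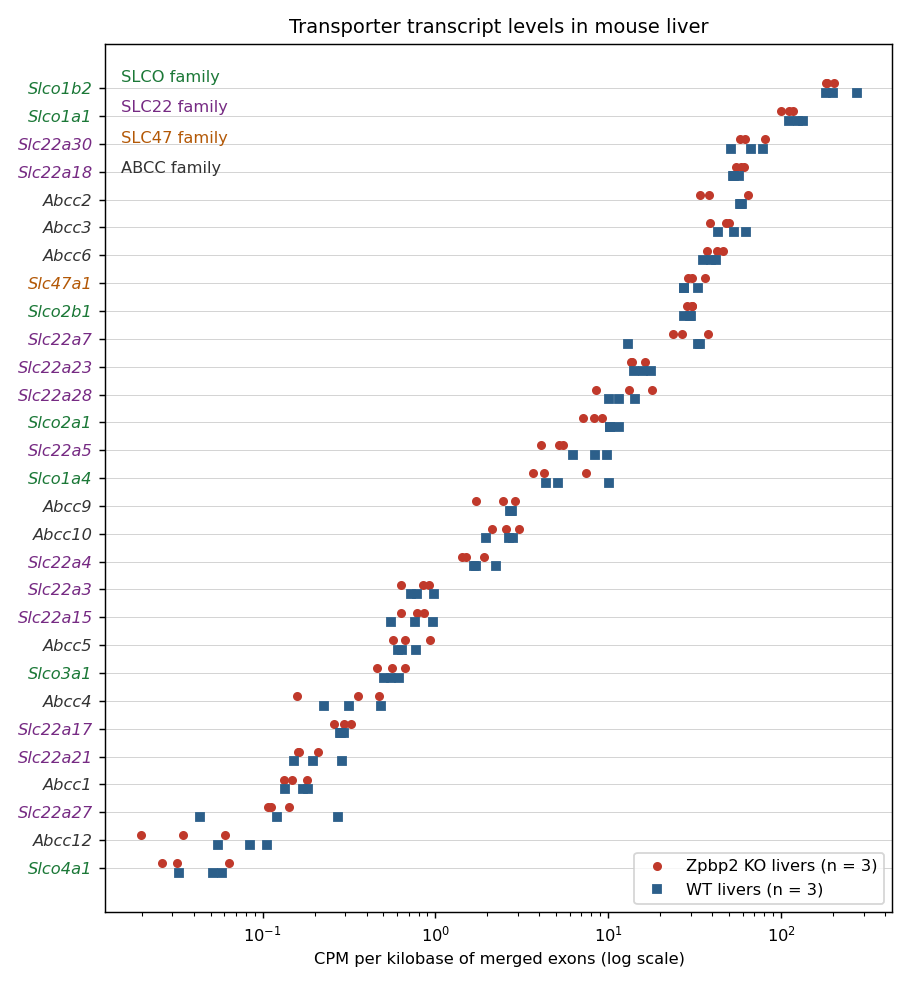
Transcript levels (x axis, CPM per kilobase of merged exons, log scale) of 29 tested transporter genes, with 1 point per liver, circles for Zpbp2 KO and squares for WT. Slco1b2 lies at the top, at 204 on average, and Slco4a1 lies at the bottom, at 0.0441.

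The SLCO family encodes sodium-independent organic anion transporting polypeptides. Of its 14 genes, 7 were tested, 5 below 0 and 2 above it, and their median log2 fold change was -0.20. Of these, 1 had an unadjusted p below 0.05. The summed level of the family was 1783, 1816 and 1931 CPM in Zpbp2 KO and 2424, 2016 and 1840 CPM in WT replicates 1 to 3. The groups overlapped, and WT replicate 1 was the highest liver. Without WT replicate 1 the family's median log2 fold change was -0.01.

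Slco1b2 (ENSMUSG00000030236, chromosome 6), the mouse counterpart of the human OATP1B uptake carriers of bilirubin, bile acids and statins, made up 51.1% of the family's CPM. It had 914, 900 and 994 CPM in Zpbp2 KO livers, against 1350, 983 and 897 CPM in WT livers. One WT liver, replicate 1, stood above the other 5, which lay close together. The means were 936 ± 50.7 CPM in Zpbp2 KO and 1080 ± 239 CPM in WT livers (SD, n = 3 each), a log2 fold change of -0.20 ± 0.155 (SE), with an edgeR quasi-likelihood adjusted p of 0.814. Without WT replicate 1 the log2 fold change was -0.01.

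The stretch around the start of Slco1b2 is shown because it belongs to the most abundant member and holds one of the hexamers searched for. The hexamers were GTTAAT and GTTAAC on both strands, and GTTAAC reads the same on both. They were found in 9 of 48 promoters of the 4 families (18.8%) and in 9.85% of all 32851 promoters of the same length, and 41 of the 51 members matched the promoter table. Among promoters of tested members it was 4 of 27 (14.8%). The 9 include those of Slc22a28, Slc22a29 and Slc22a30, which are close copies of each other, so they do not count as separate finds. The sequence runs from 250 bases before to 50 bases after the start (RefSeq, GRCm38.p6, chr6:141629268-141629567, plus strand), and the capitals mark the hexamer at -66.
Slco1b2: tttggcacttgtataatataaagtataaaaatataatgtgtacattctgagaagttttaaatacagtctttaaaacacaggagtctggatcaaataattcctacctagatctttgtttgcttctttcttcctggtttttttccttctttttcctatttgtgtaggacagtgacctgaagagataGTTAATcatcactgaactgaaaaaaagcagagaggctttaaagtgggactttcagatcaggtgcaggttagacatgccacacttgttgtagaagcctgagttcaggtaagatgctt
A match describes these letters only and is no evidence of binding.

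Slco1a1 (ENSMUSG00000041698, chromosome 6), a sinusoidal carrier of bile acids and steroid conjugates that is male-predominant in mouse liver, came next with 31.3% of the family's CPM. It had 528, 621 and 590 CPM in Zpbp2 KO livers, against 703, 665 and 589 CPM in WT livers. The WT values reached higher, but the ranges overlapped. The log2 fold change was -0.17 ± 0.109 (edgeR quasi-likelihood adjusted p of 0.798). Its neighbour Slco1a4 (ENSMUSG00000030237), a carrier that also takes up digoxin in rodents, varied more between livers. It had 27.4, 23.5 and 47.5 CPM in Zpbp2 KO livers, against 64.7, 28.1 and 32.8 CPM in WT livers. The highest liver was 2.75-fold above the lowest and 1 liver of each group was high, so the log2 fold change of -0.35 ± 0.353 turned to 0.11 without WT replicate 1 and to -0.72 without Zpbp2 KO replicate 3. The longest transcripts of Slco1a1 and Slco1a4 share an identical run of 132 bases, longer than a read of 100 cycles, so read pairs with both mates within it could come from either gene.

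Slco2b1 (ENSMUSG00000030737, chromosome 7), a carrier of steroid sulfates and drugs found in many tissues, was the most even member. It had 183, 171 and 181 CPM in Zpbp2 KO livers, against 164, 178 and 179 CPM in WT livers. The highest liver was 1.11-fold above the lowest, and the log2 fold change was 0.03 ± 0.0885, with an edgeR quasi-likelihood adjusted p of 0.948.

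Slco2a1 (ENSMUSG00000032548, chromosome 9) encodes the prostaglandin transporter, which takes up prostaglandins for breakdown and is known from endothelial cells. It had 125, 96.2 and 112 CPM in Zpbp2 KO livers, against 139, 157 and 138 CPM in WT livers. Each Zpbp2 KO liver was below each WT liver. The means were 111 ± 14.5 CPM in Zpbp2 KO and 145 ± 10.5 CPM in WT livers (SD, n = 3 each), a log2 fold change of -0.38 ± 0.119. The unadjusted p was 0.0121, and the adjusted p was 0.739 in the edgeR quasi-likelihood test and 0.406 by DESeq2, so it was not called. With each library left out the unadjusted p lay between 0.00619 and 0.0520. The summed endothelial markers were 301, 116 and 219 CPM in Zpbp2 KO replicates 1 to 3 and 265, 184 and 199 CPM in WT replicates 1 to 3. Zpbp2 KO replicate 2 was the lowest liver in both measures. Zpbp2 KO replicate 1 had the highest endothelial sum of all livers with Slco2a1 below every WT liver, and WT replicate 2 had the highest Slco2a1 level with the lowest endothelial sum of the WT livers. The part of endothelial cells in the Slco2a1 values was not tested.

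Slco3a1 lay at 4.75 ± 0.886 CPM in Zpbp2 KO and 4.71 ± 0.484 CPM in WT livers, and Slco4a1 at 0.195 ± 0.0975 CPM in Zpbp2 KO and 0.228 ± 0.0637 CPM in WT livers. The 7 untested SLCO genes were near or at the limit of detection. Slco1c1, the thyroxine carrier of brain vessels, had 24 counts over all 6 livers, Slco5a1 had 11, Slco1a6 had 7, Slco6d1 had 2 and Slco1a5 had 1. Slco4c1, known from kidney, and Slco6c1, known from testis, had 0 counts in every library.

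The SLC22 family holds organic cation transporters, carnitine and zwitterion transporters and organic anion transporters. Of 25 genes 13 were tested, 8 below 0 and 5 above it, and their median log2 fold change was -0.01. The summed level was 928, 987 and 852 CPM in Zpbp2 KO and 876, 956 and 946 CPM in WT replicates 1 to 3, with overlap between the groups.

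Slc22a5 (ENSMUSG00000018900, chromosome 11) had the smallest p-value among the tested members of the 4 families. It encodes OCTN2, the sodium-dependent carrier that brings carnitine into cells for the transport of fatty acids into mitochondria, and in mouse liver it is a known target of PPARa. It had 16.0, 12.5 and 16.7 CPM in Zpbp2 KO livers, against 30.3, 19.1 and 25.6 CPM in WT livers. Each Zpbp2 KO liver was below each WT liver. The means were 15.0 ± 2.27 CPM in Zpbp2 KO and 25.0 ± 5.61 CPM in WT livers (SD, n = 3 each), a log2 fold change of -0.73 ± 0.188, or a ratio of 0.602. The unadjusted p was 0.00432, and after Benjamini-Hochberg adjustment across 14686 genes the edgeR quasi-likelihood p was 0.659, DESeq2 0.0613 and limma-voom 0.724, so it was called by none of them. With each library left out in turn the log2 fold change stayed between -0.89 and -0.57, the unadjusted p between 0.000806 and 0.0164 and the adjusted p between 0.278 and 0.943.

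The relatives of Slc22a5 on chromosome 11 had lower levels, and Slc22a4 averaged 1.74 CPM per kilobase over the 6 livers beside 6.52 for Slc22a5. Slc22a4 (ENSMUSG00000020334), which encodes the ergothioneine carrier OCTN1, had 3.64, 3.84 and 4.85 CPM in Zpbp2 KO livers, against 4.27, 4.39 and 5.71 CPM in WT livers. The groups overlapped, with a log2 fold change of -0.22 ± 0.198 (edgeR quasi-likelihood adjusted p of 0.842). Slc22a21, which encodes a further carnitine carrier of mice, lay at 0.648 ± 0.103 CPM in Zpbp2 KO and 0.770 ± 0.253 CPM in WT livers. Its longest transcript is 91.2% identical to that of Slc22a5 and shares an identical run of 361 bases with it, so counts of this pair are less certain. Chromosome 11 also carries Zpbp2. In the order along the chromosome, Slc22a5, Slc22a21 and Slc22a4 are followed by Slc47a2, Slc47a1, Abcc3 and then Zpbp2, so Abcc3 is the member nearest to the knocked-out gene. The part of their position in these values was not tested.

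On chromosome 17, Slc22a3, which encodes a low-affinity carrier of monoamines, lay at 3.60 ± 0.650 CPM in Zpbp2 KO and 3.73 ± 0.615 CPM in WT livers. Its log2 fold change was -0.05. Slc22a2, which encodes the renal cation carrier OCT2, had 17 counts over all 6 livers.

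Slc22a18 (ENSMUSG00000000154, chromosome 7), an imprinted gene whose substrate is not settled, had 99.5, 104 and 93.7 CPM in Zpbp2 KO livers, against 90.0, 90.6 and 96.7 CPM in WT livers. The lowest Zpbp2 KO liver lay below the highest WT liver, and the log2 fold change was 0.10 ± 0.0900 (edgeR quasi-likelihood adjusted p of 0.842). Slc22a23, an orphan member, lay at 93.0 ± 9.88 CPM in Zpbp2 KO and 101 ± 11.6 CPM in WT livers. Slc22a15 lay at 10.8 ± 1.67 CPM in Zpbp2 KO and 10.8 ± 3.00 CPM in WT livers and Slc22a17, which encodes a receptor for lipocalin-2, at 1.32 ± 0.143 CPM in Zpbp2 KO and 1.29 ± 0.0352 CPM in WT livers.

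Slc22a7 (ENSMUSG00000067144, chromosome 17) encodes OAT2, an organic anion transporter of the SLC22 type in hepatocytes. It had 56.0, 79.5 and 49.5 CPM in Zpbp2 KO livers, against 27.3, 71.3 and 69.1 CPM in WT livers. WT replicate 1 was the lowest liver, while the other WT livers lay inside the Zpbp2 KO range. The log2 fold change was 0.14 ± 0.339 with an edgeR quasi-likelihood adjusted p of 0.943, and it turned to -0.19 without WT replicate 1.

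**Figure D3:**
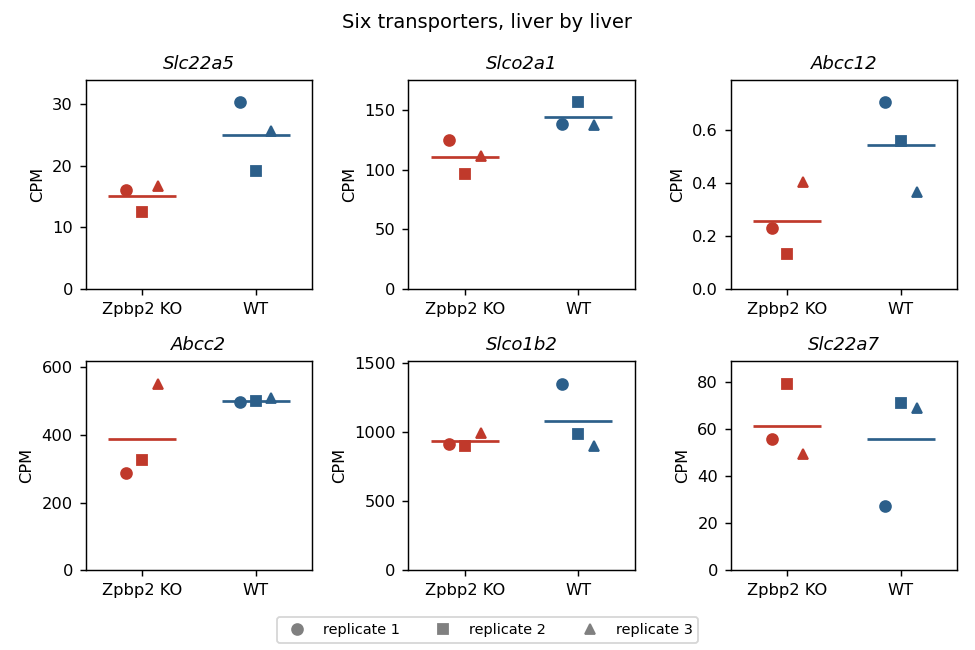
Levels (y axis, CPM, from 0) of Slc22a5, Slco2a1, Abcc12, Abcc2, Slco1b2 and Slc22a7 in each liver, Zpbp2 KO left of WT, with marker shapes for replicates and a bar at the group mean. Slc22a5 and Slco2a1 do not overlap between groups, Abcc2 is at 289 and 326 CPM in Zpbp2 KO replicates 1 and 2 and at 552 CPM in replicate 3, and WT replicate 1 is the extreme liver for Slco1b2 and Slc22a7.

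A cluster of rodent organic anion transporter genes on chromosome 19 spanned a wide range of levels. Slc22a30 (ENSMUSG00000052562) had 194, 271 and 208 CPM in Zpbp2 KO livers, against 174, 264 and 227 CPM in WT livers. The groups overlapped (log2 fold change of 0.02 ± 0.178, edgeR quasi-likelihood adjusted p of 0.991). Slc22a28 (ENSMUSG00000063590) had 26.4, 35.9 and 17.1 CPM in Zpbp2 KO livers, against 20.2, 28.8 and 23.2 CPM in WT livers. Per kilobase of merged exons, Slc22a30 averaged 66.2 CPM over the 6 livers and Slc22a28 averaged 12.6, and their ranges did not meet, at 51.8 to 80.3 and 8.53 to 17.9. Their longest transcripts share an identical run of 631 bases, so read pairs with both mates within it could come from either gene.

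The promoters of Slc22a28, Slc22a30 and Slc22a29 are shown because they are close copies while the transcripts differ in level (RefSeq, GRCm38.p6, minus strand, 250 bases before to 50 after the start). They lie at chr19:8131933-8132232 for Slc22a28, chr19:8405056-8405355 for Slc22a30 and chr19:8218851-8219150 for Slc22a29, and capitals mark the same hexamers.
Slc22a28: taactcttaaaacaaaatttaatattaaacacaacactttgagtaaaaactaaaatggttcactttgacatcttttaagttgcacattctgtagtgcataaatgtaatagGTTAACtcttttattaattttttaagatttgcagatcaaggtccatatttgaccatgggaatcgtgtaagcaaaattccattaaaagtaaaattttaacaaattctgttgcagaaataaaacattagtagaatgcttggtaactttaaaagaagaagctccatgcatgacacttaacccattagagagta
Slc22a30: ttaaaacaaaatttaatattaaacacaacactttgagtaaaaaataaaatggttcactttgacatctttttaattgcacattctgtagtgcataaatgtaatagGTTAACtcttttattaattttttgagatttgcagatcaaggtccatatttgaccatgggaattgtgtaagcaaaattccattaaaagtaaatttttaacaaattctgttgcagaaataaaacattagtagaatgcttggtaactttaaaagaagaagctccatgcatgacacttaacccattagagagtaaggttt
Slc22a29: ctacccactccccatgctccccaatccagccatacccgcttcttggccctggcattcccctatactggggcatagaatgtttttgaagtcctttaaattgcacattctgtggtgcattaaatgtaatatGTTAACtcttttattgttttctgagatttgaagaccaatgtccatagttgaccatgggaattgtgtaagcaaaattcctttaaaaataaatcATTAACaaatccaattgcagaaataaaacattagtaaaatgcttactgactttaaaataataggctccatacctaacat
In the best local alignment Slc22a28 and Slc22a30 were 98.0% identical over 294 bases, Slc22a28 and Slc22a29 85.0% over 226 bases, and Slc22a29 and Slc22a30 86.3% over 227 bases. All of them hold GTTAAC, at -140 in Slc22a28, -146 in Slc22a30 and -121 in Slc22a29, and Slc22a29 also holds the reverse form ATTAAC at -29.

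Slc22a29 and its neighbours Slc22a26 and Slc22a27 were low in every liver and highest in WT replicate 1. Slc22a29 had 11, 7 and 3 counts in Zpbp2 KO replicates 1 to 3, against 36, 3 and 2 counts in WT replicates 1 to 3. Slc22a26 had 17, 9 and 8 counts in Zpbp2 KO livers, against 37, 4 and 5 counts in WT livers. Slc22a27 had 11, 11 and 16 counts in Zpbp2 KO livers, against 31, 5 and 10 counts in WT livers. Of these only Slc22a27 passed the filter, with a log2 fold change of -0.28 ± 0.583 that turned to 0.62 without WT replicate 1. Slc22a27 and Slc22a29 are 95.8% identical in their longest transcripts and share a run of 161 bases. Slc22a29 also shares runs of 124 bases with Slc22a28 and with Slc22a30, and Slc22a27 shares 101 bases with Slc22a28. Over all 6 livers Slc22a30 had 64410 counts and Slc22a28 had 7281, so the low counts of Slc22a27 and Slc22a29 are less certain. Slc22a26, Slc22a27 and Slc22a29 were picked out after their values were seen.

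**Figure D4:**
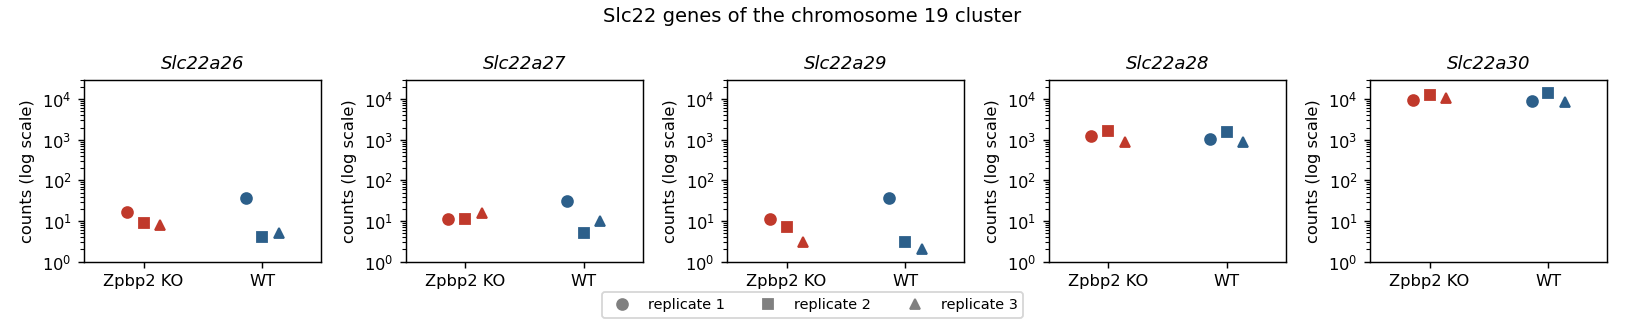
Counts (y axis, log scale) of Slc22a26, Slc22a27, Slc22a29, Slc22a28 and Slc22a30, from the chromosome 19 cluster, in each liver, Zpbp2 KO left of WT. Slc22a30 has 8652 to 14125 counts and Slc22a28 has 886 to 1638, while Slc22a26, Slc22a27 and Slc22a29 are highest in WT replicate 1, at 37, 31 and 36 counts.

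Among the other untested SLC22 genes, those of kidney transport were close to 0. Slc22a6 and Slc22a8, which encode the renal organic anion transporters OAT1 and OAT3, had 2 counts each over all 6 livers, and Slc22a12, the urate carrier, had 1. Slc22a14 and Slc22a22 had 3 counts each, Slc22a19 had 2 and Slc22a20 had 1. Slc22a13 and Slc22a16 had 0 counts in every library. The pseudogene Slc22a13b-ps, which is no member because it is not protein-coding, had 13, 23 and 11 counts in Zpbp2 KO livers, against 25, 35 and 36 counts in WT livers. Scaled to library size, 1 liver of each group crossed into the other, and the unadjusted p was 0.0320 by the edgeR fit over all genes.

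Slc47a1 (ENSMUSG00000010122, chromosome 11), which encodes MATE1, the step that hands cations to bile, made up 99.9% of the SLC47 level. It had 98.0, 123 and 103 CPM in Zpbp2 KO livers, against 92.9, 92.8 and 112 CPM in WT livers. The ranges overlapped, with a log2 fold change of 0.12 ± 0.126 and an edgeR quasi-likelihood adjusted p of 0.852. Slc47a2 (ENSMUSG00000069855, chromosome 11) had 3, 4 and 2 counts in Zpbp2 KO livers and 2, 4 and 3 counts in WT livers.

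The ABCC family holds the multidrug resistance-associated proteins and the sulfonylurea receptors. Of 10 genes 9 were tested, 6 below 0 and 3 above it, and their median log2 fold change was -0.09. The summed level was 821, 854 and 1136 CPM in Zpbp2 KO and 1105, 1038 and 1090 CPM in WT replicates 1 to 3. Zpbp2 KO replicates 1 and 2 lay below every WT liver, and replicate 3 lay above them.

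Abcc2 (ENSMUSG00000025194, chromosome 19) made up 44.2% of the family's CPM and had the same split. The sum holds the Abcc2 values, so its split is not a separate observation. It encodes MRP2, the pump of the canalicular membrane that exports conjugated bilirubin and glutathione conjugates into bile. It had 289, 326 and 552 CPM in Zpbp2 KO livers, against 497, 500 and 508 CPM in WT livers. The WT livers were nearly equal, 2 Zpbp2 KO livers were well below them and 1 was above. The means were 389 ± 143 CPM in Zpbp2 KO and 501 ± 5.84 CPM in WT livers (SD, n = 3 each), a log2 fold change of -0.37 ± 0.220, with an unadjusted p of 0.134 and an edgeR quasi-likelihood adjusted p of 0.798. Without Zpbp2 KO replicate 3 the log2 fold change was -0.71 and the unadjusted p 0.000156, still not called (adjusted p of 0.278, within a range of 0.278 to 1.0 with each library left out, by edgeR's quasi-likelihood test). That liver was singled out after its value was seen. Red blood cell markers summed to 307, 359 and 170 CPM in Zpbp2 KO replicates 1 to 3, against 154, 227 and 226 CPM in WT replicates 1 to 3. Zpbp2 KO replicates 1 and 2 lay above every WT liver in that sum and replicate 3 lay within the WT range. Alas2 did not have this split, at 150, 181 and 128 CPM in Zpbp2 KO and 129, 150 and 168 CPM in WT livers. The globin Hbb-bs had it, at 97.5, 97.8 and 23.7 CPM in Zpbp2 KO and 14.4, 43.6 and 31.5 CPM in WT livers. The part of red blood cells in the Abcc2 values and the ABCC sum was not tested. Leaving out Zpbp2 KO replicate 3 also raised the number of members with an unadjusted p below 0.05 to 5, against 3 with all livers. The share of all tested genes under that threshold was 13.4% without this liver, against 5.79% with all livers.

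Abcc3 (ENSMUSG00000020865, chromosome 11) encodes MRP3, which returns glucuronides to blood. It had 273, 220 and 283 CPM in Zpbp2 KO livers, against 358, 247 and 304 CPM in WT livers. The groups overlapped, with a log2 fold change of -0.23 ± 0.156 and an edgeR quasi-likelihood adjusted p of 0.803. Abcc6 (ENSMUSG00000030834, chromosome 7), needed for release of ATP from liver and mutated in pseudoxanthoma elasticum, had 212, 263 and 243 CPM in Zpbp2 KO livers, against 201, 239 and 224 CPM in WT livers. Its groups overlapped too, with a log2 fold change of 0.11 ± 0.114 and an edgeR quasi-likelihood adjusted p of 0.850.

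Abcc9 (ENSMUSG00000030249, chromosome 6) encodes SUR2, the regulatory subunit of potassium channels of muscle and pericytes. It had 20.5, 14.3 and 24.2 CPM in Zpbp2 KO livers, against 23.2, 22.7 and 22.9 CPM in WT livers. The WT livers were nearly equal and the Zpbp2 KO livers spread on both sides of them, with a log2 fold change of -0.22 ± 0.180 (edgeR quasi-likelihood adjusted p of 0.827). Markers of stellate cells, pericytes and smooth muscle summed to 272, 172 and 246 CPM in Zpbp2 KO and 265, 212 and 236 CPM in WT replicates 1 to 3. Zpbp2 KO replicate 2 was the lowest liver for both. The smooth muscle markers of the list did not follow the sum. Acta2 had 5.81, 7.30 and 1.03 CPM in Zpbp2 KO livers, against 2.99, 3.06 and 2.75 CPM in WT livers. Myh11 had 5.92, 5.57 and 2.76 CPM in Zpbp2 KO livers, against 2.84, 3.55 and 1.73 CPM in WT livers. The pericyte marker Rgs5 had 33.9, 15.3 and 33.4 CPM in Zpbp2 KO and 31.7, 30.5 and 26.8 CPM in WT livers. It was also lowest in Zpbp2 KO replicate 2. Among WT livers it was lowest in replicate 3, while the sum was lowest in replicate 2. The part of these cells in the Abcc9 values was not tested.

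Abcc12 (ENSMUSG00000036872, chromosome 8), a little-studied member, was rare. It had 11, 6 and 21 counts in Zpbp2 KO livers, against 37, 30 and 14 counts in WT livers, which is 0.230, 0.132 and 0.402 CPM in Zpbp2 KO and 0.705, 0.560 and 0.367 CPM in WT livers. One liver of each group crossed into the other. The log2 fold change was -1.09 ± 0.438, with an unadjusted p of 0.0369 and an edgeR quasi-likelihood adjusted p of 0.798 (0.939 by DESeq2). With each library left out the log2 fold change lay between -1.59 (without Zpbp2 KO replicate 3) and -0.79. The edgeR unadjusted p then lay between 0.0107 and 0.122. By DESeq2 the unadjusted p with all livers was 0.0567.

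The remaining ABCC genes were low to moderate and overlapped between groups. Abcc10 lay at 17.7 ± 3.15 CPM in Zpbp2 KO and 17.0 ± 3.13 CPM in WT livers, and Abcc5, an exporter of cyclic nucleotides, at 7.71 ± 1.96 CPM in Zpbp2 KO and 7.21 ± 0.884 CPM in WT livers. Abcc1, which exports glutathione conjugates, lay at 2.32 ± 0.382 CPM in Zpbp2 KO and 2.47 ± 0.382 CPM in WT livers. Abcc4, a basolateral exporter of bile acids and cyclic nucleotides that rises in cholestasis, had 3.03, 1.01 and 2.28 CPM in Zpbp2 KO livers, against 3.09, 1.44 and 2.02 CPM in WT livers. Its highest liver was 3.06-fold above its lowest. Abcc8, the sulfonylurea receptor of pancreatic islets, had 0 counts in every library.

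The extremes of the members were also counted by liver. WT replicate 1 was the highest liver for 10 of the 30 tested members (33.3%), against 17.0% of all tested genes. It was the lowest for 8 of the 30, against 19.6% of all tested genes. Zpbp2 KO replicate 2 was the highest for 7 (23.3%) and the lowest for 10 of the 30, against 26.6% and 24.0% of all tested genes.

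Other carriers and regulators of these transporters were read from the same fit. Of 20 further genes, chosen for bile acid, lipid and drug transport together with Cyp7a1, 19 were tested and 0 were called by edgeR, with 6 above 0, 13 below 0 and -0.07 as the median log2 fold change. Abcb4, which flips phosphatidylcholine into bile, had 218, 228 and 249 CPM in Zpbp2 KO livers, against 350, 317 and 296 CPM in WT livers. It did not overlap between groups and had a log2 fold change of -0.47 ± 0.103 and an unadjusted p of 0.00173. It was not called by edgeR's quasi-likelihood test (adjusted p of 0.475) but was the 1 gene of the list called by DESeq2 (adjusted p of 0.0406). DESeq2 called 0.517% of all tested genes. Cyp7a1, which controls the pace of bile acid synthesis, was the only other gene of the list with an unadjusted p below 0.05 (0.0261), at 91.7, 176 and 62.9 CPM in Zpbp2 KO livers, against 73.6, 42.1 and 53.2 CPM in WT livers. Slc10a1, the sodium-dependent bile acid uptake carrier, had 547, 654 and 625 CPM in Zpbp2 KO livers, against 632, 466 and 468 CPM in WT livers, and Abcb11, the bile salt export pump, had 785, 792 and 802 CPM in Zpbp2 KO livers, against 748, 960 and 848 CPM in WT livers. Both overlapped between groups. In this list 2 tested genes, Abcb4 among them, did not overlap, both lower in Zpbp2 KO livers. That is 10.5% of the list's tested genes, against 11.6% of all tested genes.

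Of 20 regulators 19 were tested, with 7 above 0, 12 below 0, a median of -0.05 and 0 called by edgeR or DESeq2. Nfe2l2, which encodes NRF2, an inducer of Abcc genes in mouse liver, had 64.8, 67.7 and 64.7 CPM in Zpbp2 KO livers, against 110, 67.9 and 84.6 CPM in WT livers. The log2 fold change was -0.41 ± 0.163 with an unadjusted p of 0.0344, and its groups did not overlap, though the nearest livers differed by little. Ppara, which encodes PPARa, had 65.6, 57.1 and 117 CPM in Zpbp2 KO livers, against 137, 96.4 and 108 CPM in WT livers. Its groups overlapped, with a log2 fold change of -0.51 ± 0.262 and an unadjusted p of 0.0853 in the edgeR fit, and its part in the Slc22a5 values was not tested. Hnf4a lay at 630, 660 and 642 CPM in Zpbp2 KO livers and 677, 600 and 612 CPM in WT livers. Of 7 scaffold and chaperone genes of the membrane, all tested, 0 had an unadjusted p below 0.05.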

How the data were processed

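Liver RNA of 3 Zpbp2 KO and 3 WT males was measured, 1 library per animal, from 250 ng of total RNA by poly(A) selection, a directional cDNA kit and paired reads of 100 cycles, per the labels' protocols. The deposited values are counts, whole numbers per Ensembl gene ID that the authors did not normalize. STAR, Picard and HTSeq with build mm9 are named per the submitters' processing notes. Their versions, the annotation and the strand setting were not stated in any source at hand, so no mm9 coordinates are printed. Symbols came from GENCODE M21 (GRCm38) and RefSeq, and 32938 of 37991 IDs (86.7%) matched.

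Genes were kept by filterByExpr (minimum count 10), scaled by TMM and tested with edgeR 4.0.16 (R 4.3.3), quasi-likelihood F-test, two-sided, with Benjamini-Hochberg adjustment over 14686 genes and a threshold of 0.05. CPM uses TMM-scaled library sizes. DESeq2 1.42.0, limma-voom (limma 3.58.1), other scalings and filters, a robust fit, a replicate block and each library left out were alternatives. The tests were also run on simulated counts with known changes, and the share of changes found is not given here. Replicates differed by more than sampling noise (chi-square of 20.3 to 103 per gene). Transcripts and promoters were aligned with Biopython 1.88. The members and lists were chosen with earlier results of these data known. Values in every liver are given for Zpbp2, for members called by edgeR or DESeq2, and per family for the 3 smallest p-values and the 4 highest levels. Genes of the lists of other carriers, regulators and scaffolds are named at an edgeR unadjusted p below 0.05. Cell type markers were not named by this rule. Any other gene given liver by liver was chosen after its values were seen. One tested member is not reported here by name, nor drawn, but is counted in the family totals.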

Additional observations from a re-analysis of the deposited data

How the results depend on the processing

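The count of transporter genes called was 0 under the main edgeR test and under all 14 alternatives, and leaving out 1 library each gave 0 to 0. The median log2 fold change of all 4 families ran from -0.16 to -0.07 with a library left out. That of SLCO ran from -0.33 to -0.01 (the last without WT replicate 1) and that of SLC22 from -0.13 (without WT replicate 1) to 0.02, with -0.11 without Zpbp2 KO replicate 2. That of ABCC ran from -0.23 to -0.04. Of the 30 tested members 13 kept their sign in every alternative, 13 changed it only with a library left out and 4 changed it in another setting. With limma-voom the log2 fold change was 0.00 for Slco3a1, 0.04 for Slc22a15 and 0.07 for Slc22a27. With library totals it was -0.01 for Slco3a1 and -0.02 for Slc22a30, and for Slc22a15 it was 0.00 without a filter on low counts and 0.02 with the replicate block. With a library left out, the log2 fold changes that changed sign, among the genes reported, ran from -0.13 to 0.14 for Slco3a1, from -0.72 to 0.11 for Slco1a4, from -0.01 to 0.06 for Slco2b1, from -0.73 to 0.00 for Slco4a1, from -0.04 to 0.12 for Slc22a17, from -0.16 to 0.09 for Slc22a3, from -0.19 to 0.19 for Slc22a15, from -0.14 to 0.16 for Slc22a30, from -0.15 to 0.37 for Slc22a28, from -0.42 to 0.02 for Slc22a21, from -0.19 to 0.36 for Slc22a7, from -0.74 to 0.62 for Slc22a27, from -0.12 to 0.24 for Abcc5, from -0.23 to 0.00 for Abcc1, from -0.09 to 0.18 for Abcc10 and from -0.40 to 0.29 for Abcc4, and the cause was not tested. Correlations of deviations from the group means were 0.142, 0.197 and -0.237 for same-numbered livers. For differently numbered livers they ran from -0.323 to 0.232. Deviations of 3 livers from their own mean cancel out, so these values cannot settle whether the replicate numbers pair the livers. The fit with the replicate block called 0 members and gave a median of -0.10 over all 4 families. The totals of the 21 untested members were at most 80 counts. Whether depth or a low level in liver lies behind this was not tested.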
